A study of Mus musculus with 2 samples.

Results

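The cells described here are erythroid-primed progenitors, the early bone marrow cells in which the carbonic anhydrase gene Car1 and the erythroid transcription factor gene Klf1 were both detected. They were chosen from cells that passed the deposited quality call, as those with at least 5 UMIs (unique molecular identifiers, each 1 counted RNA molecule) of Car1 and at least 1 of Klf1, under 3 of the platelet gene Pf4 and under 20 of the myeloid gene Mpo. Of 18029 passing cells, 380 met the rule (2.11%), 334 of them IkBKO and 46 wild type (WT). They were sorted from the femurs and tibias of mice as LSK cells, a marrow fraction of stem cells and early progenitors that lacks lineage markers, carries Sca-1 and has high Kit. Car1 (ENSMUSG00000027556) lies on the minus strand of chromosome 3 from 14766216 to 14808368 in mm10.

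The IkBKO cells came from young mice that the labels call IκB-negative, and the WT cells from young WT mice. Which IκB genes were altered, whether only in some cells, and how many mice went into a pool is not given in the labels. Each of 2 libraries, called replicates 1 and 2, held cells of both genotypes marked with hashing antibodies, so that the data form 4 pools of members. The IkBKO pools held 171 and 163 members with 2762126 and 3676702 UMIs in libraries 1 and 2, against 39 and 7 members with 843791 and 168118 UMIs in the WT pools. The 2 WT pools are thus small, and the WT pool of library 2 rests on 7 cells. In every member the hashing tag of its own genotype was the higher one, by a wide margin in IkBKO members of library 1 (medians of 838 and 85 tag UMIs) and a narrower one in WT members of that library (351 and 222). In library 2 the medians were 86 and 7 in IkBKO members and 33 and 17 in WT members. The tags may have set the genotype calls, so they are no separate check of them. The libraries shared 39 passing barcodes, of which 2 belonged to members, and no barcode was a member in both.

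Red cell formation starts in progenitors that switch on the GATA1 and KLF1 transcription factors and the erythropoietin receptor, while GATA2, which acts in stem and early progenitor cells, is switched off. Carbonic anhydrases, blood group proteins and water channels appear early on this path, and haem enzymes, band 3 and the globins appear later. IκB proteins hold NF-κB transcription factors in the cytoplasm, and NF-κB and interferon signals both act on genes of immune defence and antigen presentation.

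The stretches upstream of the marker genes are shown because the cells were chosen by Klf1 and named by its erythroid companions. RefSeq promoters (build GRCm38.p6) were found for 6 of 7 genes asked for, and Car1 is named only. The 250 bases before the start of Klf1 (chr8:84901732-84901981, plus strand), Ermap (chr4:119189996-119190245, minus strand), Rhd (chr4:134864286-134864535, plus strand) and Epor (chr9:21963577-21963826, minus strand) each held 1 GATA hexamer, searched as AGATAA or TGATAA on both strands and printed in capitals, so that TTATCA and TTATCT are the hexamers on the opposite strand:
Klf1: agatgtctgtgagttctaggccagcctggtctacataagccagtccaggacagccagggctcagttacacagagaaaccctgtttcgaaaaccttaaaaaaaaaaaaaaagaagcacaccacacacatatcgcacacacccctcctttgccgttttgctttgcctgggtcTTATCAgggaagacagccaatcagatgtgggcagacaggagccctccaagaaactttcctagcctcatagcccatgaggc
Ermap: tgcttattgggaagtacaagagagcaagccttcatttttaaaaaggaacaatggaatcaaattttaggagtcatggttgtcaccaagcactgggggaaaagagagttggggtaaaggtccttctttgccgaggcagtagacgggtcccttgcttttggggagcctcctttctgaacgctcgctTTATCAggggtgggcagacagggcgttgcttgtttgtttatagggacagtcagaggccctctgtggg
Rhd: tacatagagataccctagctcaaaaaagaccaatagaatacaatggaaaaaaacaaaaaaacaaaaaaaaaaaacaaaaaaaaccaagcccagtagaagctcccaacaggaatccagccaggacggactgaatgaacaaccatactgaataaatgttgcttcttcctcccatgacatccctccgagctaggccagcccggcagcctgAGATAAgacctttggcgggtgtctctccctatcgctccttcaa
Epor: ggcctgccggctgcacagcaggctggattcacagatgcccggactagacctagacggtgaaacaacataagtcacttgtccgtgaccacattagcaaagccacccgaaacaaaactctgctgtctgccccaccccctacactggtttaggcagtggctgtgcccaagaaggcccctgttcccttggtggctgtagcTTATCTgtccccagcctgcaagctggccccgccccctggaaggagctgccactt
The hexamer began 80 bases before the start in Klf1, 67 in Ermap, 43 in Rhd and 54 in Epor. No such letters were in the windows of Aqp1 and Gata1, and the CACCC box CCACACCC, also searched on both strands, was in none of the 6. Of 32851 promoters in the table, 16.6% held AGATAA or TGATAA and 3.20% held CCACACCC in a window of the same length.

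The members carried the erythroid marker genes. Ermap (a red cell membrane protein of the Scianna blood group) had 180 and 180 CPM (UMIs of a gene per 1000000 UMIs of the pool) in the IkBKO members of libraries 1 and 2, against 0.849 and 2.31 CPM in the other passing IkBKO cells. In the WT pools Ermap had 241 and 232 CPM in the members, against 0.817 and 0.0952 CPM in the other cells. Aqp1 (a water channel) had 172 and 165 CPM in the IkBKO members, against 6.06 and 6.53 CPM in the other IkBKO cells. Rhd (the Rhesus blood group protein) had 64.4 and 78.9 CPM in the IkBKO members, against 0.533 and 0.451 CPM in the other IkBKO cells. All 3 were higher in the members of every pool, and the label holds for the pools as wholes. These levels are descriptions, since membership was set by erythroid genes in the same cells.

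Single members were less uniform than the pools. After each cell was thinned to 5000 UMIs, Ermap was seen in 34.1% and 43.2% of the IkBKO members and in 40.5% and 71.4% of the WT members of libraries 1 and 2, against at most 0.379% of the other cells in any pool. Rhd was seen in 11.8% and 19.1% of thinned IkBKO members and in 40.5% and 28.6% of thinned WT members, against at most 0.106% of the other cells. Aqp1 was seen in 50% and 48.1% of thinned IkBKO members and in 67.6% and 71.4% of thinned WT members, against 1.15% to 3.25% of the other cells. Without thinning, Rhd had a UMI in 24.0% and 36.2% of IkBKO members and in 46.2% and 57.1% of WT members, Ermap in 49.1% and 65.0% and in 64.1% and 100%, and Aqp1 in 72.5% and 87.7% and in 89.7% and 85.7%. Most members of the IkBKO pools thus had no Rhd UMI. The median member had 12438 and 20165 UMIs in the IkBKO pools and 18379 and 23697 UMIs in the WT pools, against 13725 and 9465 UMIs in the other IkBKO cells and 9920 and 6978 UMIs in the other WT cells.

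Beyond the markers, genes of varied function stood highest in the members over the other IkBKO cells of both libraries. The metallothionein gene Mt2 had 333 and 225 CPM in the IkBKO members of libraries 1 and 2, against 2.68 and 2.57 CPM in the other IkBKO cells. Blvrb, which encodes a biliverdin reductase abundant in red cells, had 530 and 580 CPM in the members, against 34.1 and 56.9 CPM in the others. Smim1, which underlies the Vel blood group, had 72.8 and 100.4 CPM in the members, against 4.23 and 5.89 CPM in the others. Epor, the erythropoietin receptor gene, had 65.9 and 58.7 CPM in the members, against 3.995 and 4.11 CPM in the others. Gata1, the central erythroid transcription factor gene, had 119 and 102 CPM in the members, against 12.1 and 11.04 CPM in the others. The remaining genes among the 15 highest were Ermap, Rhd, Aqp1, the sodium pump subunit Atp1b2, Slc25a21, Trib2, Ces2g, Abcb4, C1qtnf12 and Spire1, and all 15 were also higher in the members of both WT pools.

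**Figure D1:**
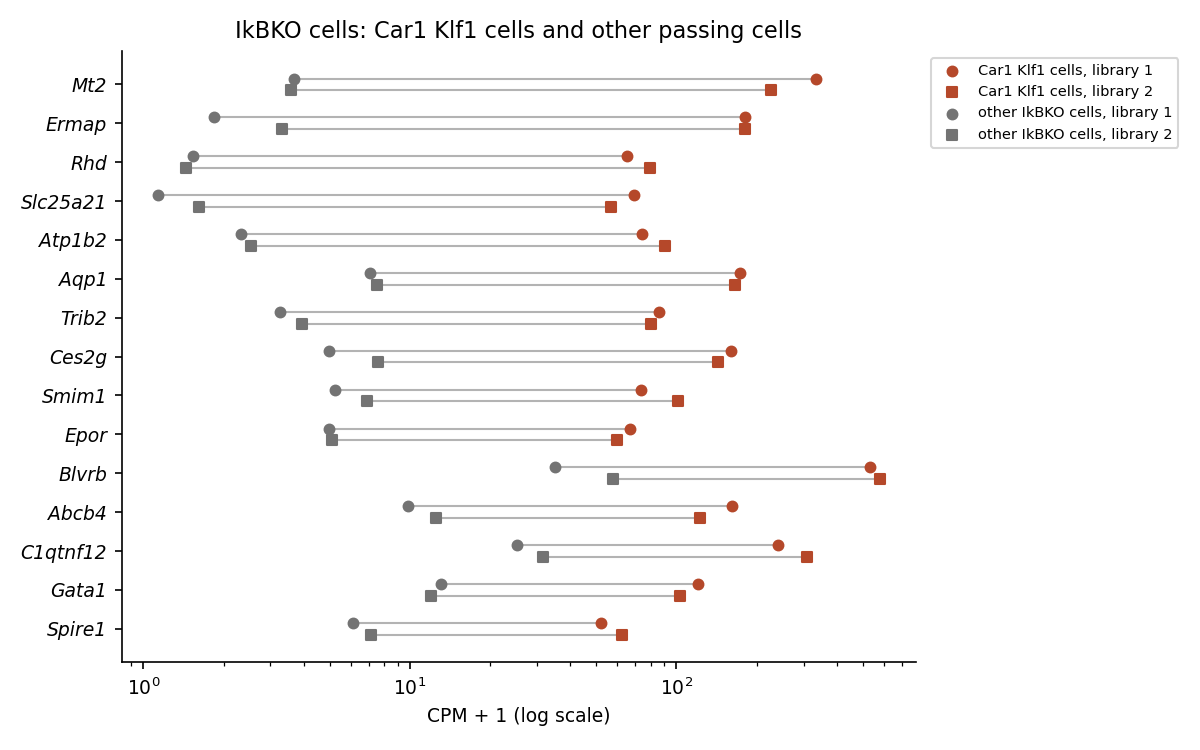
Level of the 15 genes that stood highest in the Car1 Klf1 cells of the IkBKO pools, as CPM + 1 on a log scale, for Car1 Klf1 cells (red) and other passing IkBKO cells (grey), library 1 as circles and library 2 as squares. Each gene is higher in the Car1 Klf1 cells of both libraries, with Ermap at 180 and 180 CPM against 0.849 and 2.31 CPM; membership was set by erythroid genes of the same cells, so no test applies.

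The genes that stood lowest in the members belonged to granulocytes, monocytes and lymphocytes. Elane, the neutrophil elastase gene, had 9.41 and 0.816 CPM in the IkBKO members of libraries 1 and 2, against 1196 and 261 CPM in the other IkBKO cells. Irf8, a transcription factor gene of monocytes and dendritic cells, had 4.34 and 3.26 CPM in the members, against 226 and 145 CPM in the others. Igkc and Ighm, both immunoglobulin constant region genes, were also among the 10 lowest, as were Ly6c2, Ms4a6c, S100a4, Ctsg, Clec12a and Emb. The threshold on Mpo bears directly on the myeloid genes. Summed over 18 myeloid priming genes, the members had 578 and 669 CPM in the IkBKO pools and 638 and 601 CPM in the WT pools, against 11835 and 3777 CPM in the other IkBKO cells and 4597 and 1703 CPM in the other WT cells.

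Cd34 and Flt3, genes of earlier progenitors, were low in the members, and Mki67 was high. Cd34 had 8.69 and 15.2 CPM in the IkBKO members, against 170 and 247 CPM in the other IkBKO cells. Flt3, a receptor gene of lymphoid-primed progenitors, had 1.81 and 3.81 CPM in the IkBKO members, against 54.1 and 78.5 CPM in the others. Mki67, which marks dividing cells, had 373 and 491 CPM in the IkBKO members and 472 and 458 CPM in the WT members, against 172 and 247 CPM in the other IkBKO cells and 148 and 205 CPM in the other WT cells. The summed S phase genes had no common direction in IkBKO, with 1661 and 2659 CPM in the members, against 2472 and 2164 CPM in the other IkBKO cells. In WT they were higher in the members of both libraries, at 2953 and 3480 CPM, against 2252 and 1889 CPM in the other WT cells. Kit, which encodes the stem cell factor receptor of the gate, had 157 and 115 CPM in the IkBKO members, against 116 and 199 CPM in the others, so the libraries differ in direction. Ly6a, which encodes the Sca-1 protein of the gate, had 22.8 and 22.3 CPM in the IkBKO members and 1.19 and 23.8 CPM in the WT members, against 92.7 and 123 CPM in the other IkBKO cells and 53.4 and 90.5 CPM in the other WT cells.

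Markers of other cell types summed to less in the members than in the other cells of the same pool, except for neutrophil markers in IkBKO of library 2. Of 8 T and NK cell markers, 6 to 8 were at 0 in each of the 4 pools, and their sum was at most 1.19 CPM. The sum over 10 mast cell and basophil markers was 48.5 and 17.7 CPM in the IkBKO members and 36.7 and 5.95 CPM in the WT members. The sum over 8 mature neutrophil markers was 45.6 and 229 CPM in the IkBKO members and 56.9 CPM and 0 in the WT members, all 8 being at 0 in the WT pool of library 2, against 196 and 208 CPM in the other IkBKO cells and 1415 and 1194 CPM in the other WT cells. The sum over 9 B cell markers was 11.6 and 35.9 CPM in the IkBKO members, against 13.0 and 11.9 CPM in the WT members. The 9 monocyte and dendritic cell markers summed to 194 and 219 CPM in the IkBKO members and 251 and 184 CPM in the WT members, most of it from the broadly expressed Cst3 (151 and 168 CPM in the IkBKO members, 162 and 161 CPM in the WT members). The 8 stroma markers summed to 19.2 and 13.3 CPM in the IkBKO members and 9.48 and 41.6 CPM in the WT members. The part of these cell types in the results below was not tested.

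The members were spread along a range of Car1, and other genes moved with it. The rule's edge on Car1 lay in sparse ground: 12 and 2 IkBKO members and 1 and 0 WT members of libraries 1 and 2 had exactly 5 Car1 UMIs. Another 7 and 2 IkBKO cells and 1 and 0 WT cells met the other conditions with 4. In IkBKO of library 1 the cells just inside had 84.0 CPM of Gata1 and 31.5 CPM of Ermap, and those just outside had 99.2 and 49.6 CPM of these genes. The edge on Klf1 was more crowded. Of 253 and 224 IkBKO cells with at least 5 Car1 UMIs, whatever their Pf4 and Mpo counts, 176 and 171 had a Klf1 UMI. Without the Klf1 threshold the IkBKO share of passing cells was 6.18% and 3.98%, against 4.32% and 3.03% with it. Of the IkBKO members, 48.0% and 73.6% had 20 or more Car1 UMIs, against 59.0% and 100% of the WT members. All 7 WT members of library 2 thus lay in the highest range, a share whose exact 95% interval is 59.0% to 100% for counting error.

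Within the IkBKO members, Gata2, the gene of the early GATA factor, stood at 424, 325 and 85.4 CPM in cells of library 1 with 5 to 9, 10 to 19 and 20 or more Car1 UMIs, and at 286, 162 and 79.2 CPM in library 2. Gata1 showed no such order, with 103, 137 and 118 CPM in library 1 and 105, 80.2 and 106 CPM in library 2. Ermap stood at 40.8, 44.3 and 240 CPM in library 1 and at 29.2, 50.9 and 211 CPM in library 2. Rhd stood at 2.72, 4.22 and 91.1 CPM in library 1 and at 0, 45.0 and 89.2 CPM in library 2. Cpox, a haem synthesis enzyme gene, stood at 13.6, 21.1 and 105 CPM in library 1 and at 23.3, 129 and 175 CPM in library 2. The membrane and haem genes were thus highest, and Gata2 lowest, in the cells with most Car1 in both libraries. The WT members of library 1 had 369, 278 and 67.3 CPM of Gata2 and 115, 136 and 276 CPM of Ermap in the same ranges, but 485, 216 and 241 CPM of Cpox, with 4 cells in the lowest range.

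Cpa3 and Itga2b, genes of neighbouring lineages, were highest at the low end of Car1 in both libraries. Cpa3, a protease gene of mast cells and their progenitors, stood at 89.7, 38.0 and 6.25 CPM in library 1 and at 46.7, 21.5 and 8.02 CPM in library 2. Itga2b, the CD41 gene of platelet-forming cells, stood at 59.8, 38.0 and 3.13 CPM in library 1 and at 40.8, 21.5 and 8.02 CPM in library 2. Other such genes had no common order: the mast cell and basophil gene Ms4a2 stood at 70.6, 18.98 and 2.60 CPM in library 1 and at 0, 1.96 and 4.34 CPM in library 2. The ranges also differ in depth, since Car1 was counted in UMIs: the median cell of library 1 had 7712, 8545 and 21890 UMIs, and that of library 2 had 11760, 13174 and 23157 UMIs. The part of depth in these orders was not tested.

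**Figure D2:**
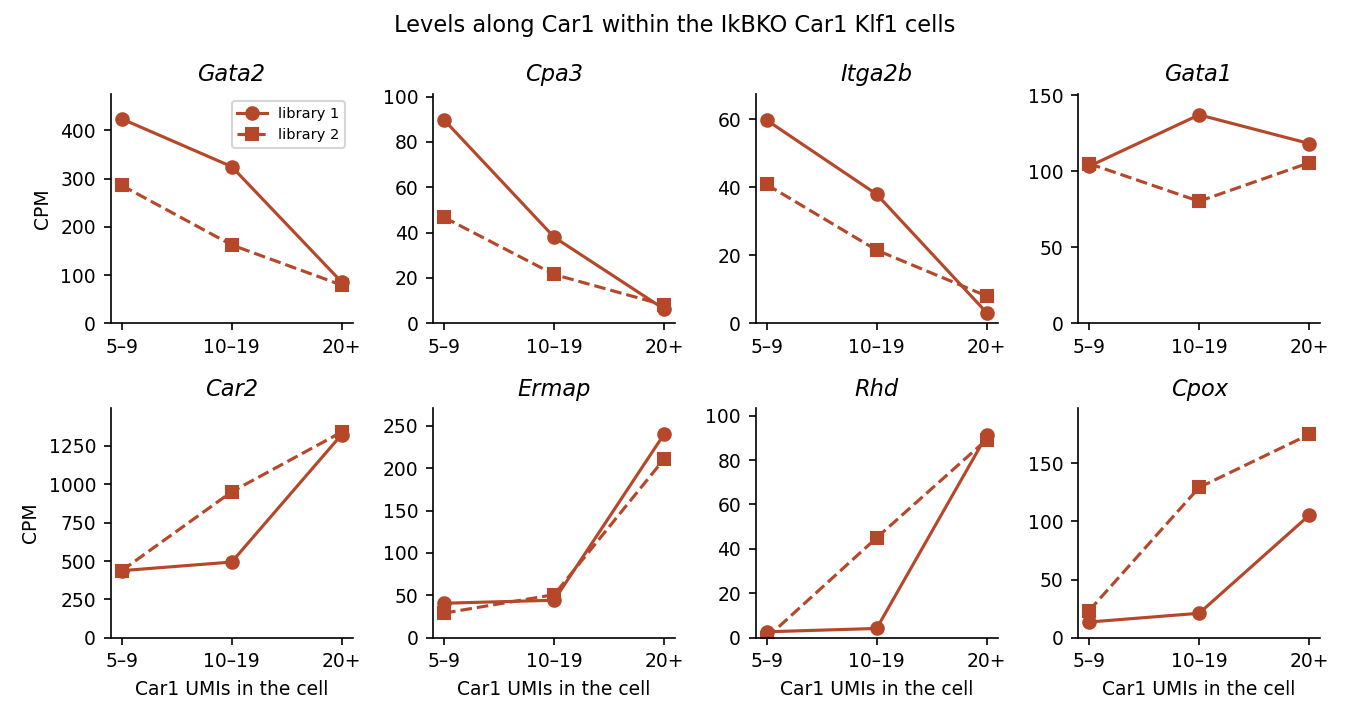
Level in CPM of 8 genes in the IkBKO Car1 Klf1 cells, split by the Car1 UMIs of the cell into 5 to 9, 10 to 19 and 20 or more, with library 1 as circles and library 2 as squares. Gata2 was lowest in the highest range, at 85.4 and 79.2 CPM, while Ermap stood at 240 and 211 CPM in the highest range, and Gata1 had no common order; the values are sums over cells, with no error bars.

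The share of these cells among LSK cells was higher in IkBKO than in WT marrow in both libraries. In library 1 they made up 4.32% of IkBKO cells (171 of 3962, exact Clopper-Pearson 95% interval 3.70% to 4.996%) and 1.05% of WT cells (39 of 3721, 0.746% to 1.43%), a ratio of 4.12. In library 2 they made up 3.03% of IkBKO cells (163 of 5383, 2.59% to 3.52%) and 0.141% of WT cells (7 of 4963, 0.0567% to 0.290%), a ratio of 21.5. The intervals of the genotypes did not overlap within either library, but they cover counting error only. The mean difference was 3.08 percentage points, and the exact two-sided permutation test over the 4 pools gave p = 0.333, the smallest p that 2 pools against 2 allow.

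The other IkBKO cells were deeper than the other WT cells in both libraries, and a rule in UMIs is met more often in deeper cells. With every cell thinned to 5000 UMIs and the same thresholds, the shares were 2.28% and 1.76% in IkBKO and 0.594% and 0.0998% in WT cells of libraries 1 and 2, with ratios of 3.84 and 17.7. Thinning left out 102 and 503 IkBKO cells and 188 and 956 WT cells with fewer UMIs. With the Car1 threshold lowered to 2 for thinned cells, and under 2 Pf4 and under 8 Mpo UMIs, the ratios were 3.79 and 21.6. The sort sets shares too, and Ly6a, the gene of the Sca-1 gate, was lower in the members than in the other cells of all 4 pools (values above); its part in the shares was not tested.

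**Figure D3:**
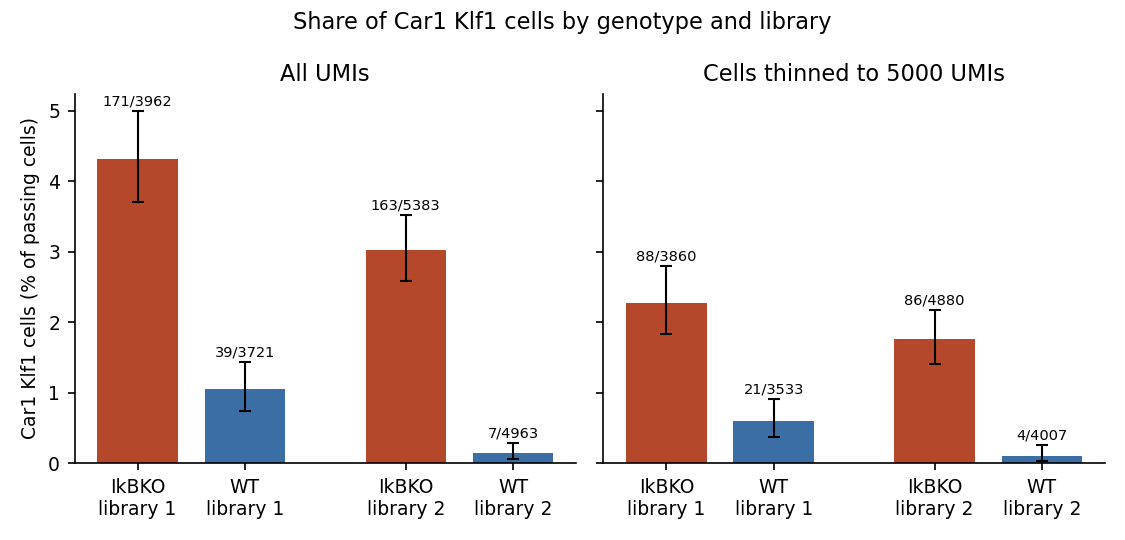
Share of Car1 Klf1 cells in percent of passing cells, for IkBKO (red) and WT (blue) in each library, with all UMIs (left) and with cells thinned to 5000 UMIs (right). Bars start at 0, error bars are exact 95% intervals for counting error, and the numbers give members over cells; the IkBKO share is above the WT share in both libraries and both panels.

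Surface antibody tags of CD48, CD150 and Flt3 were counted in library 1 alone. CD48, which marks most progenitors below the stem cell, was lower on the members: its median was 391 tag UMIs on the IkBKO members, against 578 on the other IkBKO cells, and 425 on the WT members, against 477 on the other WT cells. As a share of the 3 surface tags of a cell, CD48 made up a median of 62.4% on the IkBKO members, against 72.4% on the others, and 63.3% on the WT members, against 67.7% on the others. The interquartile ranges of the CD48 counts overlapped, at 333 to 458 on the IkBKO members, against 431 to 722 on the other IkBKO cells. Cells with at least 3 Pf4 and under 5 Car1 UMIs had CD48 medians of 419 in IkBKO and 374 in WT. A lower CD48 count was thus not particular to the members. CD150, a marker of stem cells and of early erythroid and platelet progenitors, had medians of 114 on the IkBKO members, against 108 on the others, and 106 on the WT members, against 111 on the others. Flt3 had medians of 121 on the IkBKO members and 121 on the others, and 121 on the WT members and 126 on the others. The exact sign-flip test over the 2 pools cannot give a p below 0.5, which was its value for the share of each tag.

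Genotypes were then compared within the members, over the 4 pools of summed counts, with library as a block. Genes of interferon response and antigen presentation rose in IkBKO members. Genes of the red cell membrane, of early erythroid enzymes, of haem and iron, and of DNA replication fell. Few of these falls passed without the members rich in globin, described below. Of 8832 genes tested with edgeR's quasi-likelihood test, 305 passed at an adjusted p of at most 0.05 (3.45%), of which 145 were higher (1.64% of genes tested) and 160 lower (1.81%), and the median log2 fold change over all genes was 0.019. The calls need both WT pools: without the WT pool of library 1 the count was 1, and without that of library 2, which holds 7 cells, it was 2. Without the IkBKO pool of library 1 it was 51, and without that of library 2 it was 163. DESeq2 called 52 genes, all among the 305 and in the same direction, and edgeR without the library block called 23.

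Interferon-stimulated genes were higher in the IkBKO members than in the WT members. Of 18 genes tested in this list of 26, 12 rose and none fell, with a median log2 fold change of 1.68. Summed over 25 genes of the list, the IkBKO members had 1809 and 1767 CPM, against 2353 and 2259 CPM in the other IkBKO cells. The WT members had 678 and 589 CPM, against 2026 and 2214 CPM in the other WT cells. The members of every pool thus stood below the other cells, and by more in WT. Igtp, an interferon-induced GTPase gene, had 106 and 32.9 CPM in the IkBKO members of libraries 1 and 2, against 9.48 CPM and 0 in the WT members (log2 fold change 3.62 ± 0.41 SE, edgeR adjusted p = 3.52e-16). Both IkBKO pools were above both WT pools, and the IkBKO pool of library 1 was the highest. Ifitm3, which encodes a membrane protein that blocks virus entry, had 374 and 428 CPM in the IkBKO members, against 165 and 131 CPM in the WT members (1.38 ± 0.17, adjusted p = 1.54e-13).

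Several interferon genes were near the limit of detection in the WT members. Iigp1, another interferon-induced GTPase gene, had 184 and 32.1 CPM in the IkBKO members (625 UMIs together), against 1.19 CPM and 0 in the WT members (1 UMI), a ratio of 98.2 with a 95% counting interval of 17.6 to 3886. Zbp1, a sensor gene of foreign nucleic acid, had 42.4 and 18.2 CPM in the IkBKO members, against 2.37 CPM and 0 in the WT members (2 UMIs), a ratio of 14.5 (3.95 to 120). Gbp3, a guanylate-binding protein gene, had 27.9 and 22.6 CPM in the IkBKO members, against 1.19 and 5.95 CPM in the WT members (2 UMIs), a ratio of 12.6 (3.42 to 105). Gbp2 of the same family had 66.3 and 42.2 CPM in the IkBKO members, against 9.48 CPM and 0 in the WT members (3.04 ± 0.43, adjusted p = 6.17e-10). Ifi47 had 124 and 63.6 CPM in the IkBKO members, against 18.96 and 5.95 CPM in the WT members (2.82 ± 0.31, adjusted p = 1.22e-16).

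Antigen presentation genes were higher as well: 12 of 13 tested rose and none fell, with a median log2 fold change of 1.11. H2-Q7, a non-classical class I gene with close copies whose reads it may share, had 764 and 522 CPM in the IkBKO members of libraries 1 and 2, against 191 and 190 CPM in the WT members (1.87 ± 0.16, edgeR adjusted p = 4.47e-27). B2m, the shared light chain of class I molecules, had 1935 and 1386 CPM in the IkBKO members, against 928 and 946 CPM in the WT members (0.87 ± 0.12, adjusted p = 3.35e-10). Tap1, a peptide transporter gene, had 136 and 77.2 CPM in the IkBKO members, against 41.5 and 17.8 CPM in the WT members (1.82 ± 0.25, adjusted p = 1.88e-10). The class II genes H2-Aa and H2-Eb1 were low in both genotypes: H2-Aa had 46.0 and 14.7 CPM in the IkBKO members, against 4.74 CPM and 0 in the WT members (3.41 ± 0.57, adjusted p = 3.64e-07). H2-Eb1 had 48.5 and 11.7 CPM in the IkBKO members, against 5.93 and 5.95 CPM in the WT members (2.86 ± 0.52, adjusted p = 4.45e-06).

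Zbp1 and Ifi47, given above, were in neither list, and nor were further genes among the 12 highest. Serpina3g, which encodes a protease inhibitor of haematopoietic cells, had 142 and 112 CPM in the IkBKO members, against 13.0 CPM and 0 in the WT members (3.72 ± 0.32, adjusted p = 2.39e-27). Ehd3, of a family that acts in membrane recycling, had 48.9 and 27.2 CPM in the IkBKO members and no UMI in the 46 WT members, which makes it at least 12.3-fold higher against a floor of 3 UMIs over both WT pools (2.96 CPM). Gdpd3, a lysophospholipase D gene, had 49.2 and 17.4 CPM in the IkBKO members and no UMI in the WT members, at least 10.5-fold higher against the same floor.

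**Figure D4:**
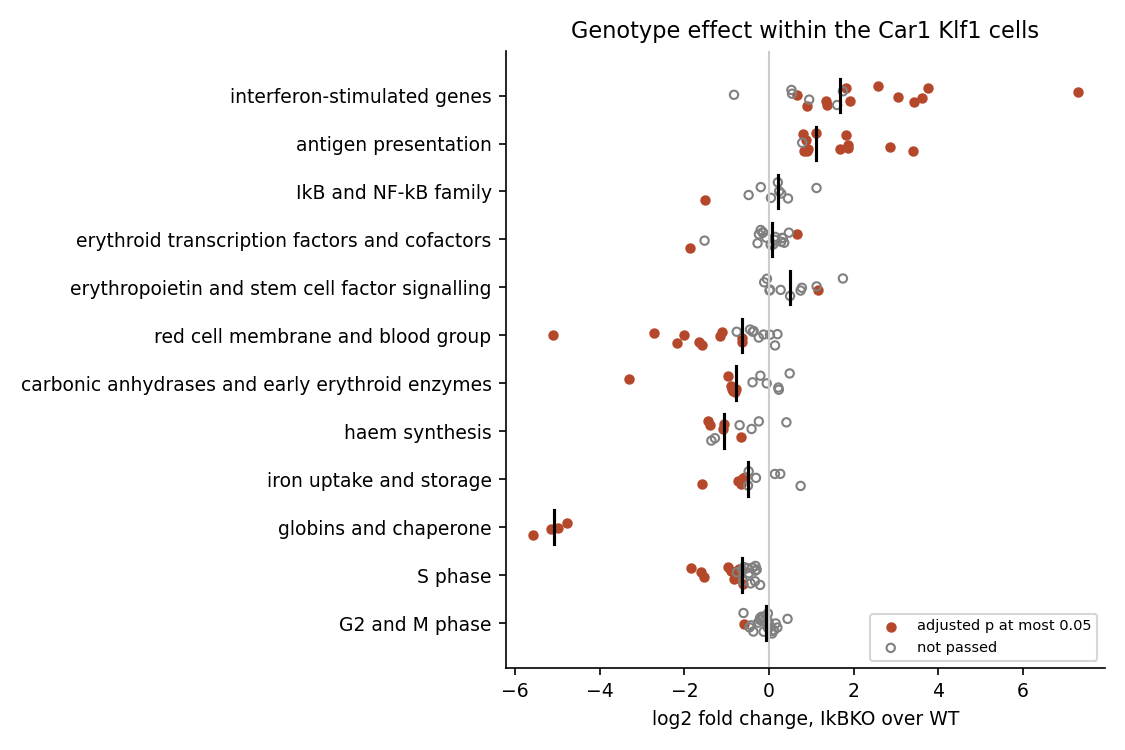
Log2 fold change of IkBKO over WT within the Car1 Klf1 cells for the tested genes of 12 lists, each point a gene, filled where the edgeR adjusted p was at most 0.05, with a vertical bar at the list's median. Interferon and antigen presentation genes lie to the right (medians 1.68 and 1.11), the globins lie near -5 with calls that changed with the scaling, and the erythroid transcription factors lie around 0.

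The IκB and NF-κB genes themselves were sparsely counted. Nfkbib, which encodes IκBβ (chromosome 7, 28758251 to 28767512, mm10), had 8.69 and 9.52 CPM in the IkBKO members of libraries 1 and 2, against 27.3 and 23.8 CPM in the WT members (−1.51 ± 0.47, adjusted p = 0.0396), and was the only 1 of 9 genes of this family tested that passed, downwards. It did not pass without the members rich in globin described below (adjusted p = 0.315). Nfkbia, which encodes IκBα (chromosome 12, 55489410 to 55492647), had 35.5 and 23.9 CPM in the IkBKO members, against 35.6 and 47.6 CPM in the WT members, and did not pass (−0.20, adjusted p = 0.914). Nfkbie, which encodes IκBε (chromosome 17, 45555703 to 45563169), had 11 UMIs in the IkBKO members and 3 in the WT members and was too low to be tested, with a ratio of 0.576 (counting interval 0.152 to 3.22). Since the counts are of 3′ ends and the altered parts are not given, these levels need not report the alteration. The subunit genes Nfkb1 (69.5 and 76.4 CPM in the IkBKO members, 55.7 and 47.6 CPM in the WT members), Rela, Relb and Nfkb2 did not pass. Of 13 NF-κB target genes tested, 3 rose and none fell: the immunoproteasome gene Psmb9, the interferon regulator gene Irf1 and the peptide-loading gene Tapbp. The last is also in the antigen presentation list. Without the globin-rich members Tapbp did not pass (0.81, edgeR adjusted p = 0.0772), while Psmb9 and Irf1 did. Psmb9 had 308 and 249 CPM in the IkBKO members, against 116 and 113 CPM in the WT members (1.37 ± 0.18, adjusted p = 2.37e-11). The median of the NF-κB target list was 0.40.

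Most regulators of the erythroid programme did not pass the test between genotypes. Of 18 erythroid transcription factor and cofactor genes tested, 1 rose and 1 fell, with a median of 0.07. Gata1 had 119 and 102 CPM in the IkBKO members, against 91.3 and 101 CPM in the WT members, and did not pass (0.33, edgeR adjusted p = 0.576). Tal1, which works in a complex with GATA1, had 81.8 and 87.6 CPM in the IkBKO members, against 102 and 89.2 CPM in the WT members, and did not pass (−0.20, adjusted p = 0.822). Gata2 had 172 and 100.4 CPM in the IkBKO members, against 123 and 41.6 CPM in the WT members, and passed (0.66 ± 0.20, adjusted p = 0.0327), but without the IkBKO pool of library 1 its log2 fold change was −0.0552, and without the globin-rich members it did not pass (0.35, adjusted p = 0.666). Sox6, which encodes a factor that promotes red cell maturation, had 7.96 and 7.07 CPM in the IkBKO members, against 36.7 and 11.9 CPM in the WT members (−1.86 ± 0.46, adjusted p = 0.00336), and stood at 0.56 without the globin-rich members. Klf1 had 173 and 171 CPM in the IkBKO members, against 248 and 280 CPM in the WT members, and Car1 had 2845 and 2490 CPM in the IkBKO members, against 2510 and 2855 CPM in the WT members; both set membership and were not tested.

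Of 11 receptor and signalling genes of erythropoietin and stem cell factor tested, 1 rose and none fell, with a median of 0.50. Epor had 65.9 and 58.7 CPM in the IkBKO members, against 73.5 and 65.4 CPM in the WT members, and did not pass (−0.12, edgeR adjusted p = 0.939). Jak2, the kinase gene that acts below that receptor, had 57.2 and 40.3 CPM in the IkBKO members, against 28.4 and 11.9 CPM in the WT members (1.16 ± 0.33, adjusted p = 0.0209). Jak2 in the WT pool of library 2 rested on 2 UMIs, and without the globin-rich members it did not pass (1.02, adjusted p = 0.170), which left 0 of 10 genes of this list.

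Red cell membrane and blood group genes were lower in the IkBKO members. Of 19 red cell membrane and blood group genes tested, 10 fell and none rose, with a median log2 fold change of −0.63. Rhd had 64.4 and 78.9 CPM in the IkBKO members of libraries 1 and 2, against 193 and 250 CPM in the WT members (−1.58 ± 0.18, edgeR adjusted p = 1.14e-15). Both IkBKO pools lay below both WT pools, but in the WT pool of library 2 a single cell held 69.0% of the Rhd UMIs. Aqp1 had 172 and 165 CPM in the IkBKO members, against 288 and 238 CPM in the WT members (−0.63 ± 0.16, adjusted p = 0.00594). Ermap had 180 and 180 CPM in the IkBKO members, against 241 and 232 CPM in the WT members, and did not pass (−0.37, adjusted p = 0.314). Slc4a1, the band 3 anion exchanger gene, had 0 and 2.72 CPM in the IkBKO members, against 62.8 and 29.7 CPM in the WT members (−5.09 ± 0.53, edgeR adjusted p = 3.22e-19). Without the globin-rich members described below Slc4a1 was too low to be tested.

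Enzymes, haem synthesis and iron handling followed the same direction. Of 13 carbonic anhydrase and early enzyme genes tested, 7 fell and none rose (median −0.79). Car2, another carbonic anhydrase gene that the rule did not use, had 1063 and 1244 CPM in the IkBKO members, against 2073 and 2290 CPM in the WT members (−0.90 ± 0.12, edgeR adjusted p = 2.74e-12). Of 11 haem synthesis genes tested, 5 fell and none rose (median −1.05). Fech, which inserts iron into haem, had 27.2 and 37.0 CPM in the IkBKO members, against 81.8 and 89.2 CPM in the WT members (−1.44 ± 0.27, adjusted p = 9.13e-06). Cpox had 78.6 and 161 CPM in the IkBKO members, against 249 and 178 CPM in the WT members (−1.08 ± 0.17, adjusted p = 8.20e-08), so that most of its difference lay in library 1. Of 11 iron uptake and storage genes tested, 5 fell and none rose (median −0.50). Fth1, the ferritin heavy chain gene, had 1611 and 2423 CPM in the IkBKO members, against 3118 and 3515 CPM in the WT members (−0.73 ± 0.11, adjusted p = 1.24e-08).

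The globins, which fill the mature red cell, were lower in the IkBKO members in both libraries, but their calls were unstable. Hbb-bs had 4.71 and 45.1 CPM in the IkBKO members of libraries 1 and 2, against 1302 and 874 CPM in the WT members (log2 fold change −5.57 ± 0.18 SE, edgeR adjusted p = 4.83e-205). With RLE size factors in place of TMM the fold change was −5.58 and the adjusted p 0.679. All 4 globins tested passed in the main setting and with DESeq2, 1 of 4 with RLE, with Mpo under 5, with Car1 at least 10 or without the deepest members, 2 of 4 by the rule on thinned counts, and 0 of 4 without the library block or without either WT pool. These counts sat in few cells. The globin genes had at least 10 UMIs together in 0 of 171 and 6 of 163 IkBKO members, and in 9 of 39 and 1 of 7 WT members. A single cell held 54.3% of the 2439 globin UMIs of the WT pool of library 1, and a single cell held all 384 of the WT pool of library 2. Hba-a1 and Hba-a2 are near-identical copies, as are Hbb-bs and Hbb-bt, so that the split of reads within each pair is uncertain.

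Few of the differences in red cell genes passed once the globin-rich members were left out. Without the 16 members that had 10 or more globin UMIs, a choice made after the data were seen, 117 of 8731 genes tested passed (1.34%). Of these 117 genes, 84 were higher (0.962% of genes tested) and 33 lower (0.378%), and 105 were among the 305. Interferon-stimulated genes then gave 11 of 19 higher and antigen presentation genes 10 of 13 higher, with none lower in either list. Red cell membrane genes gave 1 of 18 lower, carbonic anhydrase and enzyme genes 1 of 12, and haem synthesis and iron genes none, with none higher in those lists. The globins are left out of these counts because the filter acts on them. Rhd then had a log2 fold change of −0.45 (edgeR adjusted p = 0.641), while Car2 still passed at −0.50 (adjusted p = 0.00126) and H2-Q7 at 1.74. Median fold changes of the red cell membrane and haem lists were −0.21 and 0.025 in that setting.

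Comparing only cells at the high end of Car1 gives another view, with no test. Among members with 20 or more Car1 UMIs (82 and 120 IkBKO, 23 and 7 WT cells), Iigp1 had 141 and 24.7 CPM in the IkBKO pools, against 0 and 0 in the WT pools. Rhd had 91.1 and 89.2 CPM in these IkBKO cells, against 197 and 250 CPM in the WT cells. Pcna had 192 and 295 CPM in these IkBKO cells, against 348 and 458 CPM in the WT cells. Car2 had 1324 and 1340 CPM in these IkBKO cells, against 2117 and 2290 CPM in the WT cells. The direction in both libraries was that of the whole pools for all 4 genes, with globin-rich cells kept in.

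The genes among the 12 lowest that are in no list were Mgst3, Rgcc, St3gal6, Nxpe4, Btnl10 and the cyclin gene Ccnd1, given below with the replication genes. Mgst3, a microsomal glutathione transferase gene, had 26.1 and 60.4 CPM in the IkBKO members, against 171 and 190 CPM in the WT members (−2.23 ± 0.20, edgeR adjusted p = 3.73e-25), but stood at −0.33 without the globin-rich members (adjusted p = 0.907). Rgcc, a regulator gene of the cell cycle, had 6.15 and 30.2 CPM in the IkBKO members, against 55.7 and 113 CPM in the WT members (−2.44 ± 0.30, adjusted p = 4.66e-13), and stood at −1.07 without the globin-rich members (adjusted p = 0.548). St3gal6, a sialyltransferase gene, had 2.53 and 11.2 CPM in the IkBKO members, against 28.4 and 29.7 CPM in the WT members (−2.45 ± 0.49, adjusted p = 5.56e-05). Nxpe4 and Btnl10 rested on 14 and 16 UMIs in the WT pool of library 1 and on 4 each in that of library 2. Without the globin-rich members Nxpe4 did not pass (edgeR adjusted p = 0.119), and Btnl10 and St3gal6 were too low to be tested.

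Replication genes were lower in the IkBKO members. Of 25 S phase genes tested, 12 fell and none rose (median −0.63), whereas of 24 G2 and M phase genes 1 fell and none rose (median −0.07). Rrm2, a subunit gene of the enzyme that makes deoxynucleotides, had 31.9 and 89.2 CPM in the IkBKO members of libraries 1 and 2, against 155 and 137 CPM in the WT members (−1.60 ± 0.20, edgeR adjusted p = 3.11e-13). Pcna, the sliding clamp gene of replication, had 182 and 284 CPM in the IkBKO members, against 333 and 458 CPM in the WT members (−0.76 ± 0.15, adjusted p = 5.20e-05). Ccne1, the cyclin E1 gene, had 13.0 and 49.2 CPM in the IkBKO members, against 99.6 and 53.5 CPM in the WT members (−1.85 ± 0.27, adjusted p = 1.51e-09), with nearly all of the difference in library 1. Mki67 had 373 and 491 CPM in the IkBKO members, against 472 and 458 CPM in the WT members, and did not pass (−0.13, adjusted p = 0.842). Ccnd1, the cyclin D1 gene, was among the 12 lowest with 2.90 and 6.26 CPM in the IkBKO members, against 26.1 and 17.8 CPM in the WT members (−2.51 ± 0.53, adjusted p = 0.000228). Without the globin-rich members, 2 of the 25 S phase genes passed, both lower: Rrm2 at −1.04 (adjusted p = 0.00563) and Ccne1 at −1.43 (adjusted p = 0.0026), while Pcna did not (−0.48, adjusted p = 0.0981).

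**Figure D5:**
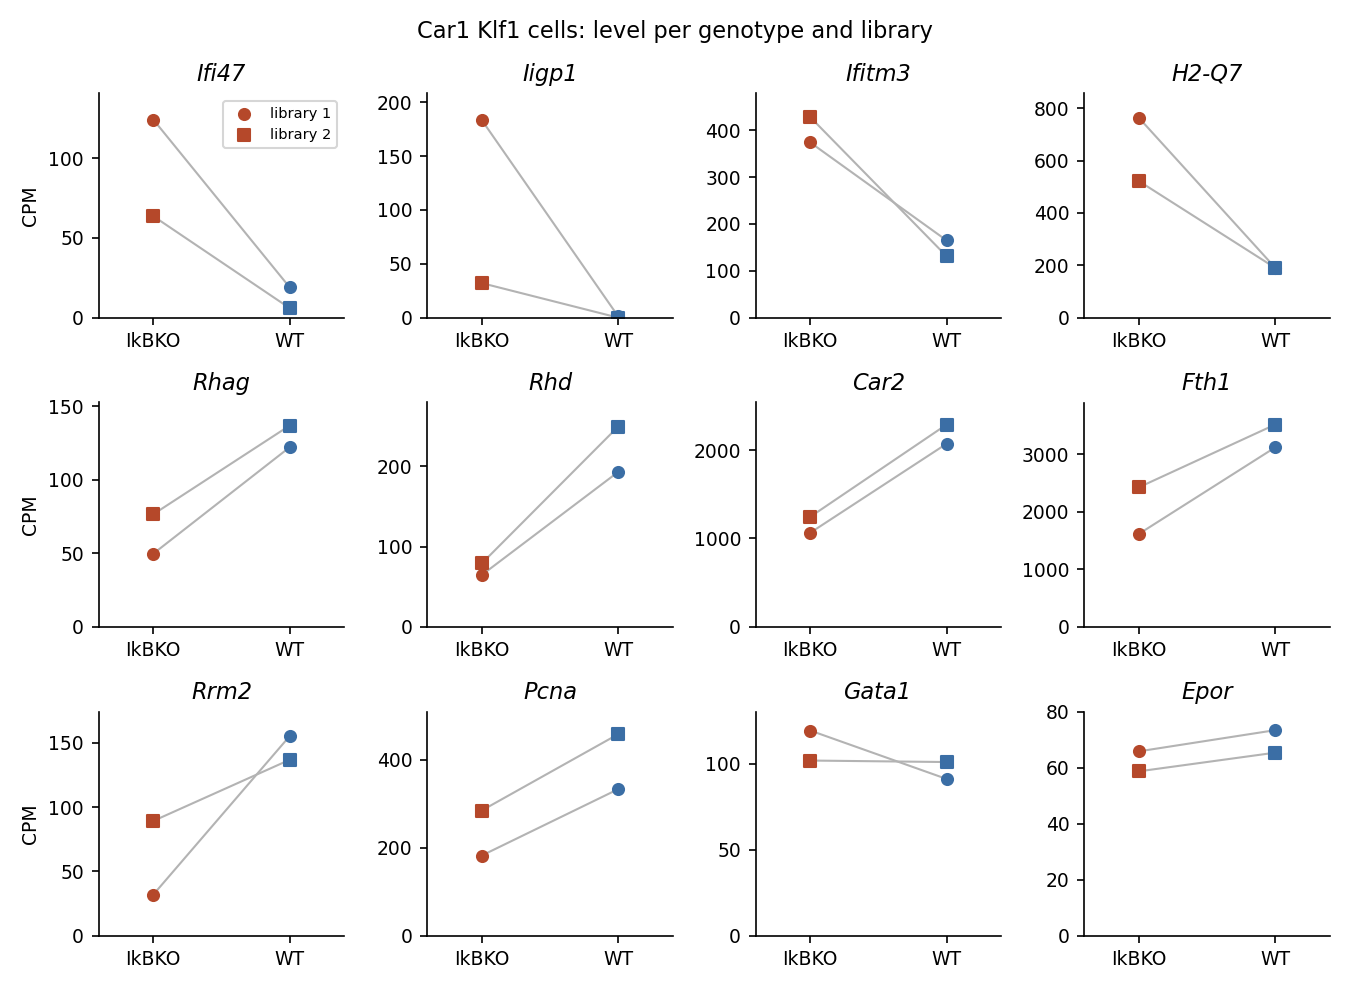
Level in CPM of 12 genes in the Car1 Klf1 cells of each pool, IkBKO left of WT, with library 1 as circles and library 2 as squares joined within a library. The interferon and antigen genes of the top row are higher in IkBKO in both libraries, Rhag, Rhd, Car2, Fth1, Rrm2 and Pcna are lower, and Gata1 and Epor did not pass the test. Without the globin-rich members Rhd, Fth1 and Pcna did not pass (edgeR adjusted p = 0.641, 0.232 and 0.0981), while Car2 and Rrm2 did. The WT points of library 2 rest on 7 cells.

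Some genes of other fates passed the test within the members, on lists of few tested genes, beside 3.45% of all genes. Of 8 megakaryocyte and platelet genes tested 1 rose (Gp5, 24.6 and 25.02 CPM in the IkBKO members, against 7.11 and 5.95 CPM in the WT members), of 11 stem cell identity genes 2 rose (Txnip and Ly6a), of 6 myeloid priming genes 1 rose (Nkg7), and none of these lists had a gene that fell. Ly6a did not have a common direction, since its WT level was 1.19 CPM in library 1 and 23.8 CPM in library 2. Of 5 lymphoid priming genes 1 fell (Dntt), and of 11 immediate-early genes 2 fell (Btg2 and Fos), all with few UMIs in 1 or both WT pools. Of 4 monocyte and dendritic cell markers tested Lyz2 fell, on 41 UMIs in the WT pool of library 1 and 1 in that of library 2. The 1 mast cell, 2 neutrophil, 1 B cell and 1 stroma markers tested did not pass, and no T and NK cell marker was high enough to be tested. Without the globin-rich members Gp5, Txnip, Nkg7 and Btg2 did not pass (edgeR adjusted p = 0.0768, 0.144, 0.0677 and 0.131), while Ly6a, Dntt and Lyz2 did. Fos was too low to be tested in that setting.

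Whether the genotype effect in the members differed from that in the other LSK cells was tested over 8 pools. Of 13828 genes tested, 36 passed (0.260%), with 9 higher (0.0651%) and 27 lower (0.195%) in the difference of log2 effects, members minus other cells. DESeq2 called 12, all lower, so that none of the 9 higher calls held there, and edgeR without the pool block called 0, with 748 genes at an unadjusted p under 0.05 there, and leaving out 1 pool gave 12 (without WT of library 2) to 151 genes (without IkBKO of library 2), with 21 without WT of library 1. Ifi47 had 82.2 and 70.9 CPM in the other IkBKO cells of libraries 1 and 2, against 60.9 and 60.2 CPM in the other WT cells, beside 124 and 63.6 CPM in the IkBKO members and 18.96 and 5.95 CPM in the WT members (difference 2.15 ± 0.49 SE, edgeR adjusted p = 0.00787). The gap between genotypes was thus wider among the members, where the WT level was below that of the other WT cells. Serpina3g passed with the same layout, and Gbp2, Igtp, H2-Q7 and Ifitm3 did not pass, at adjusted p = 0.305, 0.479, 0.849 and 0.141.

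Lower differences were led by red cell genes. Rhag, which encodes the partner of the Rhesus protein, had 49.6 and 76.4 CPM in the IkBKO members, against 122 and 137 CPM in the WT members, while the other cells had 0.716 and 1.27 CPM in IkBKO and 0.280 and 0.310 CPM in WT (difference −2.77 ± 0.48, edgeR adjusted p = 1.85e-05). Rrm2 had 63.7 and 44.8 CPM in the other IkBKO cells, against 40.6 and 30.6 CPM in the other WT cells, a direction opposite to that in the members (difference −1.99 ± 0.40, adjusted p = 0.00054). Ermap also passed (difference −2.14 ± 0.46, edgeR adjusted p = 0.0027), although its effect within the members did not. In the other cells Ermap had 0.849 and 2.31 CPM in IkBKO, against 0.817 and 0.0952 CPM in WT. The other cells include cells near the rule, with at least 5 Car1 UMIs but no Klf1 UMI. These numbered 77 and 53 in IkBKO and 12 and 2 in WT, with Ermap at 45.3 and 50.6 CPM in IkBKO. Their part in the differences of red cell genes was not tested. The effect on Nfkbib did not pass as different (−0.20, adjusted p = 1.0): the other cells had 6.54 and 7.83 CPM in IkBKO and 19.1 and 16.1 CPM in WT. Without the globin-rich members 12 genes passed, of which 10 were among the 36, and neither Ifi47 (2.03, adjusted p = 0.0913) nor Rhag (−1.74, adjusted p = 0.541) was one of them.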

How the data were processed

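RNA and antibody tags of LSK cells were counted in 2 droplet libraries (Chromium 3′ v3.1, per the labels). The deposited matrices hold raw UMI counts, not normalized, written by Cell Ranger 6.0.0 per the file headers. Cell Ranger 7.0, Seurat 4.3.0 and mm10 are listed in the submitters' processing notes. Quality calls and genotypes per barcode were taken from a deposited table; how they were set is not given there or in the labels. Library 1 had 7683 passing barcodes of 9322, and library 2 had 10346 of 24787. No doublet caller was run. GENCODE M21 held 32158 of 32285 gene identifiers (99.6%).

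Counts of members, and of the other cells, were summed per genotype and library and tested with edgeR 4.0.16 in R 4.3.3 (robust quasi-likelihood F test, TMM, filterByExpr, two-sided, Benjamini-Hochberg over all genes tested), with library as a block for the 4 pools and pool as a block for the difference test; 1 residual degree of freedom remained per gene in the first, so the spread is mostly shared between genes. The labels put both genotypes in 1 library, which pairs the pools; deviations of same-numbered pools correlated at 0.20 over 8836 genes. p-values measure the spread between pools, and cannot see that few cells hold a gene's counts. Car1, Klf1, Pf4 and Mpo set membership and got no test. DESeq2 1.42.0 was an alternative. Intervals are 95% and cover counting error only. The scripts were tested on simulated counts.

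The members and lists were chosen with earlier results of these data known. Named genes were the 12 highest and 12 lowest called fold changes that averaged 20 CPM or more in 1 genotype and the same direction in both libraries (6 and 6 for the difference), leaving out unnamed gene models, the IκB and NF-κB family, the markers, and up to 4 genes per list with the smallest p; for members against other IkBKO cells, the 15 highest and 10 lowest with at least 50 CPM. Other genes of the fixed lists are named as examples. Some genes that these rules name are not reported here.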

Additional observations from a re-analysis of the deposited data

Results flagged for a closer look

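The genotype effect of 36 genes differed between the Car1 Klf1 cells and the other LSK cells in the edgeR test of the difference itself. The named ones are given as log2 differences, Car1 Klf1 cells minus other cells. Among interferon genes, Iigp1 was at 4.47 (1 UMI in the WT members) and Ifi47 at 2.15, and the protease inhibitor gene Serpina3g was at 2.20. The neutrophil genes S100a9 and S100a8 were at 4.42 and 4.22. S100a8 had 103 and 80.4 CPM in other IkBKO cells, against 621 and 434 CPM in other WT cells, while the members had 18.1 and 92.2 CPM in IkBKO, against 20.1 CPM and 0 in WT. Among red cell genes, Hbb-bt was at −5.57, the spectrin gene Sptb at −3.18 and Rhag at −2.77. Cited4 was at −2.65 and Nxpe2 at −2.60. Ifi30, which encodes a thiol reductase of antigen processing, was at −2.51, with 92.7 and 85.6 CPM in other IkBKO cells, against 19.8 and 13.0 CPM in other WT cells, and 24.6 and 44.6 CPM in IkBKO members, against 47.4 and 17.8 CPM in WT members. Without the globin-rich members, of the genes named here S100a9 and S100a8 still passed.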

How the results depend on the processing

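Of the genotype effect's 305 genes, DESeq2 gave 52, Car1 at least 10 UMIs 115, the rule on thinned counts 150, no replicate block 23 and no globin-rich members 117; leaving out 1 pool gave 1 to 163. No replicate block left 14 of the 64 named genes called, and DESeq2 28. For the difference's 36 genes, DESeq2 gave 12, no replicate block 0 and no globin-rich members 12, with 12 to 151 when 1 pool was left out. Without the globin-rich members Sox6 turned to 0.56 and Cldn13 to 0.13 on the log2 scale; Hbb-bt at 0.29 (difference 0.36) follows from a filter on globin counts and tests nothing. With 1 pool left out, Gata2 ranged over −0.0552 (without IkBKO of library 1) to 1.80, Dntt over −2.90 to 1.47 (without WT of library 2), and Fos over −2.59 to 6.57 and Lyz2 over −1.68 to 1.46 (both highest without WT of library 1). Members without globin-rich cells or by depth were alternatives chosen after seeing the data. The cause was not tested.

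The share in IkBKO of library 1 was 2.28% and 3.01% after thinning (Car1 at least 5 or 2), 3.26% with Car1 at least 10 and 6.18% with no Klf1 threshold. It was 1.76%, 2.15% and 3.98% (no Klf1 threshold) in IkBKO of library 2, and 0.594% after thinning in WT of library 1. The difference in percentage points was then 1.67, 2.13, 2.48 and 4.31. In tag UMIs instead of shares, the mean log2 difference, members minus other cells, was −0.352 for CD48, 0.052 for CD150 and −0.015 for Flt3, the last turned from 0.22. The 7 WT cells of library 2, where 1 UMI is 5.95 CPM, limit low genes most.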

Other observations

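Cells with at least 5 Car1 UMIs but no Klf1 UMI lay beside the Car1 Klf1 cells: whatever their Pf4 and Mpo counts, there were 77 and 53 in IkBKO and 12 and 2 in WT of libraries 1 and 2. Gata2 stood at 342 and 282 CPM in these IkBKO cells, against 332 and 183 CPM in the WT cells, and Ermap at 45.3 and 50.6 CPM in IkBKO, against 73.8 and 36.6 CPM in WT. Their median depth was 7354 and 12103 UMIs in IkBKO, below the 12438 and 20165 of the IkBKO Car1 Klf1 cells, and the WT cells of library 2 are 2.

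Cells with at least 3 Pf4 UMIs that met the conditions on Car1, Klf1 and Mpo numbered 8 in all. The 1145 cells with at least 3 Pf4 and under 5 Car1 UMIs, 260 and 578 of them IkBKO and 112 and 195 WT, had Klf1 at 9.53 and 9.94 CPM in IkBKO, against 6.39 and 5.26 CPM in WT. Their Gata2 stood at 186 and 174 CPM in IkBKO, against 227 and 155 CPM in WT.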
